A study of Drosophila melanogaster with 12 samples.

Results

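In RNA-seq of fly heads, 32 genes were close to absent from the 3 libraries of at least 1 group and present in the 3 libraries of another. They were selected on the raw counts of all 12 libraries, from the 15091 rows whose names allowed it, of the 23793 rows in the count table. A gene was taken when it had at most 2 counts in each library of 1 group (low) and at least 15 in each library of another (high). Rows for transposable element insertions, antisense and long noncoding RNAs, cytochrome P450, yolk protein, odorant-binding protein, chemoreceptor and methuselah-like genes were left out by name. The 32 genes are 0.212% of the allowed rows. Because the counts chose the genes, their levels and group differences are a description, with no test.

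Each library came from 50 pooled heads of Drosophila melanogaster males, which were 3 days old. In every group the nSyb driver, which is active in neurons, expressed a hairpin RNA for RNA interference. The hairpin was against mCherry in NTC IR-1 and against Luciferase in NTC IR-2, which are no fly genes and served as controls, and against dYEATS2 or dENL/AF9 in the other groups. Each group had 3 libraries, and p-values measure the spread between these. The word young stands in the titles of the NTC IR-2 and dENL/AF9-IR libraries and is missing from the others, although the stated age is the same.

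Total counts ranged from 30298251 to 54132559 per library, so that 15 counts stood for 0.277 to 0.495 CPM (counts scaled to the library total). In the allowed rows the value 3 occurred 4204 times, more often than 1 (3099 times) or 2 (2229 times), so that 1 count need not be 1 read and no counting interval is given. Group names are those in the header of the count table. Another deposited table, of normalized values, lists these libraries under exchanged names, by which NTC IR-1 here is called dENL/AF9-IR, dYEATS2-IR is called NTC IR-2, NTC IR-2 is called NTC IR-1 and dENL/AF9-IR is called dYEATS2-IR. The targeted genes were read under both namings. D12, the gene of dYEATS2, was at 8.83 ± 0.281 CPM where the label is dYEATS2-IR and at 9.04 ± 0.966 where it is NTC IR-1 (SD, n = 3). The ear gene, which encodes dENL/AF9, was at 40.6 ± 2.92 CPM where the label is dENL/AF9-IR and at 42.0 ± 7.36 where it is NTC IR-2 (SD, n = 3). Neither difference passed edgeR's quasi-likelihood test (FDR 0.919 for D12 and 1.0 for ear). In the libraries labelled NTC IR-1, which the normalized table calls dENL/AF9-IR, ear was at 31.98 ± 1.12 CPM (SD, n = 3), and at 30.8 to 33.1 it was below each of the other 9 libraries. It was higher in NTC IR-2 by 0.39 ± 0.119 on the log2 scale (SE, edgeR FDR 0.0401), a call that ended without any of 9 libraries (FDR 0.0526 to 0.145), the exceptions being NTC IR-1 replicate 3, NTC IR-2 replicate 1 and dENL/AF9-IR replicate 3. Its differences from NTC IR-1 in dYEATS2-IR and dENL/AF9-IR did not pass (edgeR FDR 0.281 and 0.0697). D12 was at 7.76 ± 0.923 CPM where the label is dENL/AF9-IR, called dYEATS2-IR there, and at 7.74 ± 0.853 where it is NTC IR-2 (SD, n = 3), and no difference in D12 between groups passed (edgeR FDR 0.279 to 1.0). Each group name below stands for the libraries so labelled in the count table.

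Many of the named genes belong to male reproduction. The accessory gland, ejaculatory duct and ejaculatory bulb of the male fly secrete seminal fluid proteins that pass to the female at mating and change her egg laying, receptivity and sperm storage. Testis-specific genes are transcribed in the male germ line and encode, among others, structural proteins of the sperm tail. These organs lie in the abdomen, and their transcripts are not typical of heads. In RNA from whole heads, fewer cells of a type and less RNA per cell cannot be told apart.

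Of the 32 genes, 24 were high in the libraries labelled NTC IR-1 and low in those labelled NTC IR-2. Of the other 8, 4 were low in dYEATS2-IR, 1 in dENL/AF9-IR and 1 in NTC IR-1, and 2 were high in dYEATS2-IR and low in the other groups. Counted by group, NTC IR-1 was high for 28 genes and low for 3, and NTC IR-2 was high for 2 and low for 26. The dYEATS2-IR group was high for 4 and low for 5, and dENL/AF9-IR was high for 3 and low for 7. In 24 genes a low group had 0 counts in all 3 of its libraries.

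**Figure D1:**
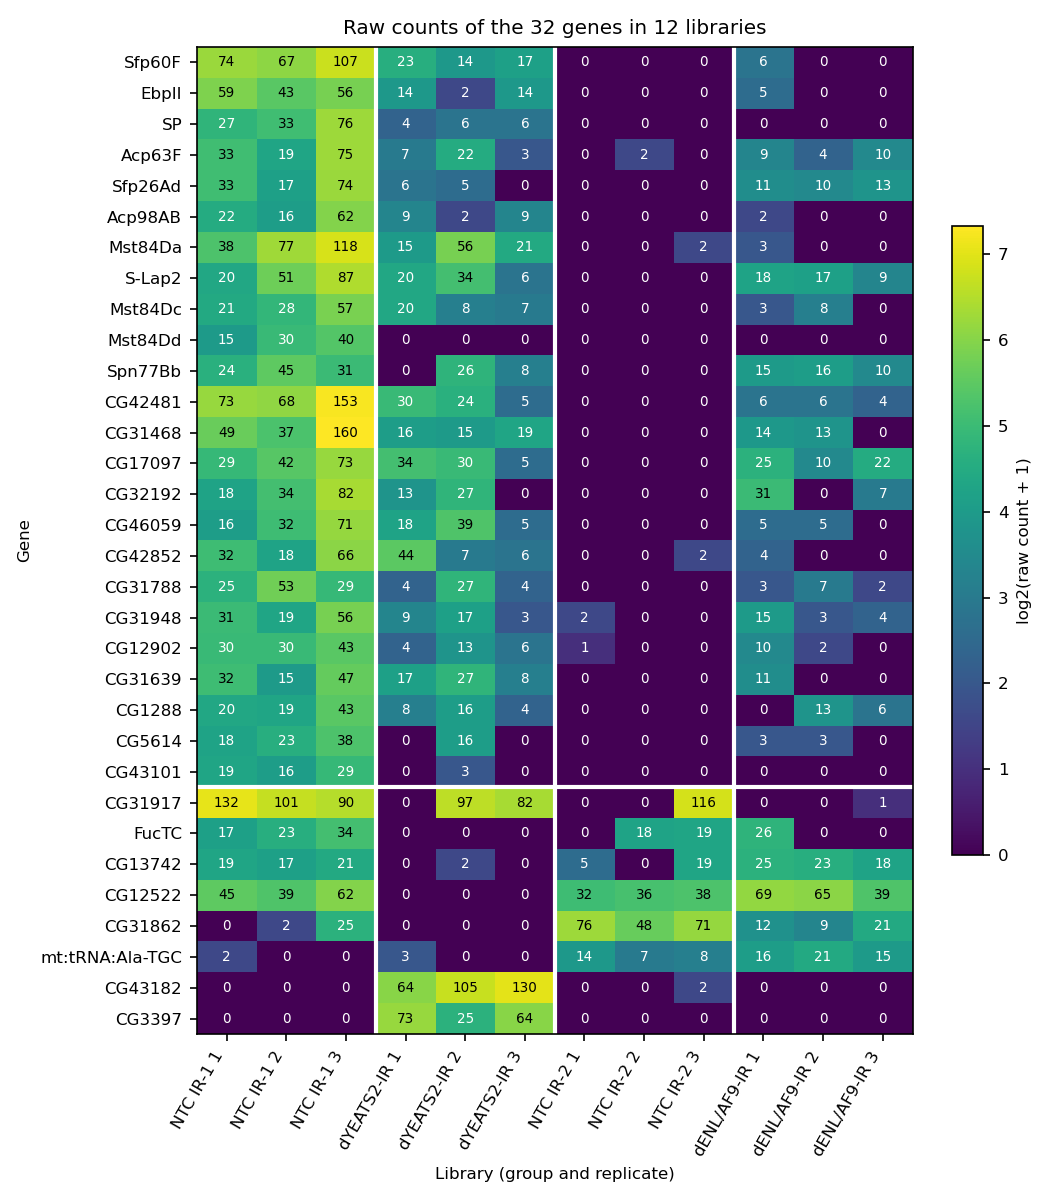
Raw counts of the 32 genes (vertical axis) in the 12 libraries (horizontal axis), printed in each cell and coloured as log2(raw count + 1). Above the white line are the 24 genes high in NTC IR-1 and low in NTC IR-2, where no library of NTC IR-2 exceeds 2 counts, and below it the 8 genes with other patterns.

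The genes encoding seminal fluid proteins were 6 of the 24. SP encodes the sex peptide, which acts in the mated female to raise egg laying and lower receptivity. SP (FBgn0003034), at 3L 13301635 to 13301922 on the plus strand of BDGP6, had 27, 33 and 76 counts in NTC IR-1 beside 4, 6 and 6 in dYEATS2-IR. It had 0 in each library of NTC IR-2 and of dENL/AF9-IR. Every NTC IR-1 library was above every dYEATS2-IR library, and both were above the other groups.

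Sfp60F, a seminal fluid protein gene, had the highest mean level of the 6 in NTC IR-1. It had 74, 67 and 107 counts in NTC IR-1, 23, 14 and 17 in dYEATS2-IR, 0 in each NTC IR-2 library, and 6, 0 and 0 in dENL/AF9-IR. The NTC IR-1 libraries stood above all others, with 1.87 ± 0.408 CPM against 0.528 ± 0.128 in dYEATS2-IR (SD, n = 3; CPM here and below is TMM-scaled). Against a floor of 3 counts per library, the mean in NTC IR-1 was at least 22.2-fold higher than in NTC IR-2.

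EbpII encodes a protein of the ejaculatory bulb, which contributes to the mating plug. It had 59, 43 and 56 counts in NTC IR-1, 14, 2 and 14 in dYEATS2-IR, 0 in each NTC IR-2 library, and 5, 0 and 0 in dENL/AF9-IR. The NTC IR-1 libraries did not overlap any other group. EbpII and Sfp60F are 873 bases apart on the minus strand of 2R.

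The accessory gland protein gene Acp98AB had 22, 16 and 62 counts in NTC IR-1, 9, 2 and 9 in dYEATS2-IR, 0 in each NTC IR-2 library, and 2, 0 and 0 in dENL/AF9-IR. Sfp26Ad, another seminal fluid protein gene, had 33, 17 and 74 counts in NTC IR-1, 6, 5 and 0 in dYEATS2-IR, 0 in each NTC IR-2 library, and 11, 10 and 13 in dENL/AF9-IR. Among the 24 genes it was the one with a lower mean CPM in dYEATS2-IR than in dENL/AF9-IR (0.110 ± 0.0960 against 0.234 ± 0.0531; SD, n = 3). Acp63F, an accessory gland protein gene, had 33, 19 and 75 counts in NTC IR-1, 7, 22 and 3 in dYEATS2-IR, 0, 2 and 0 in NTC IR-2, with 9, 4 and 10 in dENL/AF9-IR. Its NTC IR-1 and dYEATS2-IR libraries overlapped. For 5 of the 6 genes every NTC IR-1 library was above every dYEATS2-IR library in CPM. The selection, which asked for high counts in NTC IR-1, favoured this order.

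The testis genes were 4 of the 24. Mst84Da, Mst84Dc and Mst84Dd encode small structural proteins of the sperm tail, are expressed in the male germ line, and lie within one cluster on 3R, from 7363307 to 7366262. Gaps between adjacent genes among these were 481 and 1177 bases. Mst84Db, which was not selected, lies in the second gap, between Mst84Dc and Mst84Da. It had 29, 27 and 83 counts in NTC IR-1 and 10, 0 and 0 in NTC IR-2 (edgeR FDR 0.0876). Mst84Da had 38, 77 and 118 counts in NTC IR-1, 15, 56 and 21 in dYEATS2-IR, 0, 0 and 2 in NTC IR-2, with 3, 0 and 0 in dENL/AF9-IR. Mst84Dc had 21, 28 and 57 counts in NTC IR-1, 20, 8 and 7 in dYEATS2-IR, 0 in each NTC IR-2 library, and 3, 8 and 0 in dENL/AF9-IR. Mst84Dd had 15, 30 and 40 counts in NTC IR-1 and 0 in each of the 9 libraries of the other groups. In dYEATS2-IR, Mst84Da passed the upper threshold in each library and Mst84Dd had no count. The copies are short and similar, and how reads with several matches were counted is not given in the sources used here.

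S-Lap2 encodes a sperm leucyl aminopeptidase, one of a family of abundant sperm proteins. It had 20, 51 and 87 counts in NTC IR-1, 20, 34 and 6 in dYEATS2-IR, 0 in each NTC IR-2 library, and 18, 17 and 9 in dENL/AF9-IR. The NTC IR-2 libraries stood below the others, and those of dYEATS2-IR overlapped both NTC IR-1 and dENL/AF9-IR. Its exons overlap those of GAPsec on the other strand, which had 275 to 707 counts in every library.

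Spn77Bb, a gene of the serpin family of serine protease inhibitors, had 24, 45 and 31 counts in NTC IR-1, 0, 26 and 8 in dYEATS2-IR, 0 in each NTC IR-2 library, and 15, 16 and 10 in dENL/AF9-IR. The other 13 genes of the pattern are known by a CG number, and no role is given for them here. CG42481 had the highest mean level of the 24 in NTC IR-1, at 2.19 ± 0.893 CPM (SD, n = 3). It had 73, 68 and 153 counts in NTC IR-1, 30, 24 and 5 in dYEATS2-IR, 0 in each NTC IR-2 library, and 6, 6 and 4 in dENL/AF9-IR. It lies 2612 bases from SP on 3L.

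CG31468 was high in both NTC IR-1 and dYEATS2-IR. It had 49, 37 and 160 counts in NTC IR-1, 16, 15 and 19 in dYEATS2-IR, 0 in each NTC IR-2 library, and 14, 13 and 0 in dENL/AF9-IR. CG43101 was low in both NTC IR-2 and dENL/AF9-IR, with 0 counts in each of their libraries, 19, 16 and 29 in NTC IR-1 beside 0, 3 and 0 in dYEATS2-IR. For both genes every NTC IR-1 library had more counts than every dYEATS2-IR library.

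CG17097 had 29, 42 and 73 counts in NTC IR-1, 34, 30 and 5 in dYEATS2-IR, 0 in each NTC IR-2 library, and 25, 10 and 22 in dENL/AF9-IR. CG32192 had 18, 34 and 82 counts in NTC IR-1, 13, 27 and 0 in dYEATS2-IR, 0 in each NTC IR-2 library, and 31, 0 and 7 in dENL/AF9-IR. CG32192 was the one gene of the 24 for which a dENL/AF9-IR library exceeded an NTC IR-1 library in CPM. The remaining 8 genes were CG1288, CG12902, CG31639, CG31788, CG31948, CG42852, CG46059 and CG5614. They ranged from 15 to 71 counts in NTC IR-1, from 0 to 44 in dYEATS2-IR, from 0 to 2 in NTC IR-2 and from 0 to 15 in dENL/AF9-IR.

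Summed over the 24 genes, NTC IR-1 held 758, 832 and 1673 counts and dYEATS2-IR 315, 436 and 156. The sums in NTC IR-2 were 3, 2 and 4, and dENL/AF9-IR held 199, 117 and 87. As a share of the library total the sums were 22.9, 18.2 and 32.2 CPM in NTC IR-1, 5.05 to 14.4 in dYEATS2-IR, and 3.70, 2.16 and 1.88 in dENL/AF9-IR, against at most 0.0884 in NTC IR-2. On this scale no groups overlapped, with NTC IR-1 highest, followed by dYEATS2-IR, dENL/AF9-IR and NTC IR-2. The rule fixed that NTC IR-1 lay above NTC IR-2. By asking for at least 15 counts in each NTC IR-1 library, it also favoured NTC IR-1 over the other groups. Its top place is therefore not free of the selection. Nor is the bottom place of NTC IR-2, where the rule asked for at most 2 counts in each library. The mean CPM was higher in dYEATS2-IR than in dENL/AF9-IR for 22 of the 24 genes. All NTC IR-1 libraries were above all dENL/AF9-IR libraries for 23 genes, and above all dYEATS2-IR libraries for 10. The shares of all rows with the same orders were not computed, so these counts only describe the selected genes.

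Single libraries took part in this unequally. Replicate 3 of NTC IR-1 had the highest CPM of its group for 21 of the 24 genes, and replicate 2 of dYEATS2-IR for 14. The seminal fluid genes summed to 6.60, 4.15 and 9.36 CPM in NTC IR-1, compared with 1.85, 1.58 and 1.37 in dYEATS2-IR. The testis genes summed to 2.50, 3.96 and 6.28 CPM in NTC IR-1, compared with 1.61, 3.03 and 0.953 in dYEATS2-IR, so that the testis sums of these groups overlapped and the seminal fluid sums did not. In dENL/AF9-IR the sums were 0.622, 0.279 and 0.522 CPM for seminal fluid genes and 0.453, 0.498 and 0.204 for testis genes.

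**Figure D2:**
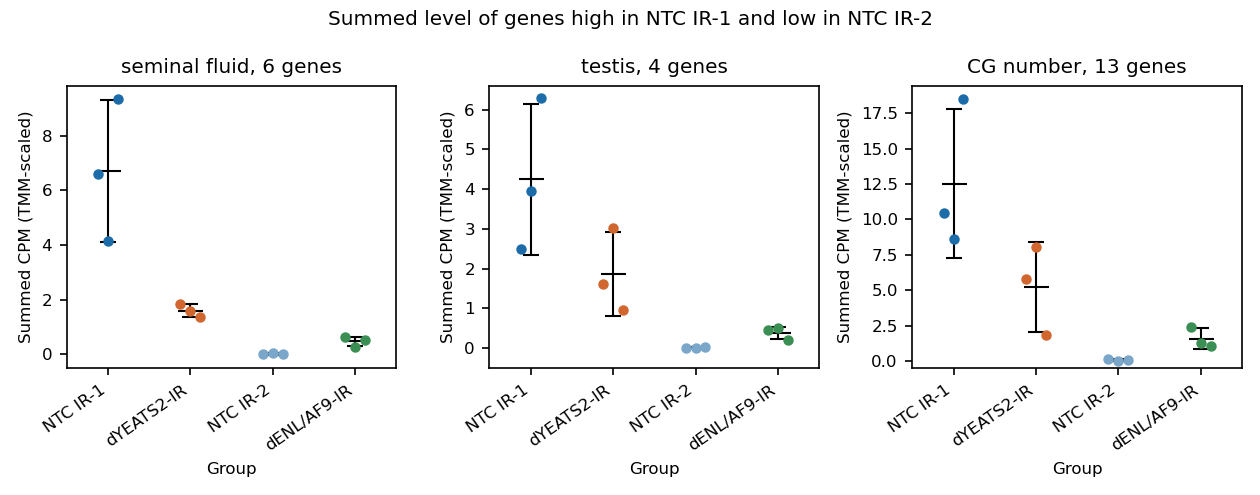
Summed CPM (vertical axis, TMM-scaled) of the 6 seminal fluid genes, 4 testis genes and 13 genes with a CG number that were high in NTC IR-1 and low in NTC IR-2, by group; points are libraries in order of replicate, and the line and bars are mean and SD. NTC IR-2 is at most 0.103 CPM in each panel, and the testis sums of NTC IR-1 and dYEATS2-IR overlap.

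Other reproductive genes, whose counts did not enter the selection as members, were read next. The marker lists were chosen with earlier results of these data known, and their tests were added to a plan of levels only. Of the list of accessory gland and ejaculatory bulb markers, SP and EbpII were among the 24 genes and are left out here, and 4 more were in the table. Together they had 1.26 to 3.74 CPM in NTC IR-1, 0.869 to 3.09 in dYEATS2-IR, 0 to 0.309 in NTC IR-2 beside 0.737 to 1.32 in dENL/AF9-IR. In edgeR's quasi-likelihood test over 12661 rows, 3 of the 4 fell in NTC IR-2 relative to NTC IR-1 and none rose, with a median log2 fold change of -5.46. Over all rows tested 9.16% fell and 10.3% rose in this comparison, and the median was -0.04. These shares changed with single libraries: 3.90% fell and 3.43% rose without NTC IR-1 replicate 1, 5.05% and 4.50% without its replicate 2, 4.12% and 5.97% without NTC IR-2 replicate 2, and 5.92% and 7.32% without NTC IR-2 replicate 3.

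Acp26Aa, whose product stimulates ovulation, had 14, 25 and 55 counts in NTC IR-1, 10, 7 and 0 in dYEATS2-IR, 0 in each NTC IR-2 library, and 11, 3 and 18 in dENL/AF9-IR (FDR 0.0147). It missed the upper threshold of the selection by 1 count. Acp36DE, whose product is needed for sperm storage, had 36, 18 and 57 counts in NTC IR-1 and 5, 0 and 3 in NTC IR-2, which did not overlap (log2 fold change -3.47 ± 0.752 SE, n = 3, edgeR FDR 0.0105). Dup99B, which encodes a peptide related to the sex peptide, had 31, 5 and 26 counts in NTC IR-1 and 0 in each library of NTC IR-2 (edgeR FDR 0.0352). The fourth, Acp62F, had 14, 11 and 42 counts in NTC IR-1 and 4, 0 and 0 in NTC IR-2 (edgeR FDR 0.0725).

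No single library ended the calls of Acp26Aa and Acp36DE. That of Dup99B ended without any of 7 libraries (FDR 0.0514 to 0.109), which were NTC IR-1 replicates 1 and 3, each NTC IR-2 replicate, and dENL/AF9-IR replicates 1 and 2.

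Of the testis markers, 9 were in the table, none was selected, and 7 were tested. They summed to 8.27 to 10.9 CPM in NTC IR-1, 5.83 to 10.4 in dYEATS2-IR, 2.47 to 6.14 in NTC IR-2 beside 3.41 to 4.38 in dENL/AF9-IR. In NTC IR-2 relative to NTC IR-1, 3 of the 7 fell and none rose (edgeR), with a median log2 fold change of -3.09. The sperm genes loopin-1 (37, 43 and 57 counts against 7, 0 and 3; FDR 0.0129), dj (20, 19 and 77 against 3, 0 and 0; FDR 0.0143) and ProtB (3, 11 and 18 against 0 in each; FDR 0.0383) were those that fell. Mst87F and ocn did not pass (edgeR FDR 0.0560 and 0.0806). Mst77F (109, 131 and 100 against 92, 66 and 82) and CycB3 were near level (log2 fold change -0.20 for each, edgeR FDR 0.635 and 0.790). Mst77F had a mean of 2.26 CPM in NTC IR-2, where the whole list had a mean sum of 3.78. The marker bam, which acts in early germ cells, had 0 counts in all 12 libraries. Leaving out replicate 2 of NTC IR-2 left 1 of the 3 calls. The call of dj ended without that library (FDR 0.0567), and that of ProtB without any of 10 libraries (FDR 0.0551 to 0.0932), the exceptions being dYEATS2-IR replicate 3 and dENL/AF9-IR replicate 3.

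Rows that share their name with selected genes were summed as well. Of the genes named Acp, Sfp or Mst57D, with Acp1 and Acp65Aa, which encode cuticle proteins, left out, 44 were not selected, and 42 of them had a count somewhere. They include 3 of the marker genes above. Their CPM summed to 16.9, 13.7 and 38.6 in NTC IR-1, compared with 14.2, 12.3 and 4.80 in dYEATS2-IR. The sums were 3.19, 1.04 and 0.356 in NTC IR-2 beside 6.15, 3.09 and 3.75 in dENL/AF9-IR. All NTC IR-1 libraries were above all NTC IR-2 and dENL/AF9-IR libraries, whereas NTC IR-1 overlapped dYEATS2-IR, dYEATS2-IR overlapped dENL/AF9-IR, and dENL/AF9-IR overlapped NTC IR-2. Of these genes 33 had their highest mean in NTC IR-1, and the share of all rows with that order was not computed. Some of them rested mainly on replicate 3 of NTC IR-1, such as Sfp77F (0, 0 and 21 counts in that group) and Sfp23F (0, 2 and 21).

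The 9 genes of the S-Lap, Mst84D and Mst98C families that were not selected summed to 13.2, 10.3 and 17.2 CPM in NTC IR-1, compared with 7.03, 15.2 and 6.93 in dYEATS2-IR. They summed to 7.20, 2.75 and 1.92 CPM in NTC IR-2 beside 6.26, 4.76 and 3.18 in dENL/AF9-IR. Replicate 1 of NTC IR-2 was above each dENL/AF9-IR library and above replicates 1 and 3 of dYEATS2-IR, and no NTC IR-2 library reached those of NTC IR-1. These families were chosen after the selected genes were seen. No test of a family sum is given, and the edgeR values printed above for some of their genes are of single rows.

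Markers of some other tissues also moved between these groups. The fat body list summed to 1293 to 2397 CPM in NTC IR-1, 488.1 to 712.7 in dYEATS2-IR, 449.6 to 607.6 in NTC IR-2 beside 536.9 to 1265 in dENL/AF9-IR, and 6 of its 7 genes fell in NTC IR-2 relative to NTC IR-1 (edgeR). The gut list of 9 genes summed to 11.6 to 14.4 CPM in NTC IR-1, against 1.36 to 2.41 in NTC IR-2, most of it the amylase gene Amy-p. The hemocyte list, of blood cell markers, summed to 13.4 to 23.3 CPM in NTC IR-1, 9.44 to 22.3 in dYEATS2-IR, 6.45 to 9.76 in NTC IR-2 beside 8.03 to 25.5 in dENL/AF9-IR, and 2 of its 4 tested genes fell in NTC IR-2 relative to NTC IR-1 (edgeR). Photoreceptor markers, which mark heads, summed to 24170 to 35700 CPM in NTC IR-1, 43390 to 49430 in dYEATS2-IR, 30190 to 41120 in NTC IR-2 beside 33470 to 49520 in dENL/AF9-IR. Relative to NTC IR-1, 3 of the 6 photoreceptor genes rose in dYEATS2-IR, 2 in NTC IR-2 and 2 in dENL/AF9-IR (edgeR). Of all rows, 2.42%, 10.3% and 8.67% rose in these contrasts, and 0.467%, 3.43% and 1.64% without NTC IR-1 replicate 1. The neuronal list, which marks the cells of the driver, summed to 3087 to 3843 CPM in NTC IR-1 compared with 4845 to 6069 in NTC IR-2, and 3 of its 5 genes rose. Muscle and glia lists overlapped between these 2 groups (3553 to 5535 against 3753 to 4491 CPM, and 1036 to 1497 against 1259 to 1660). In each, 1 of 6 genes fell in NTC IR-2 (edgeR). The ovary list summed to 0.541 to 3.83 CPM in NTC IR-1 against 0 to 0.850 in NTC IR-2, and its 1 tested gene was not called. The part of each tissue in the levels of the 24 genes was not tested.

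**Figure D3:**
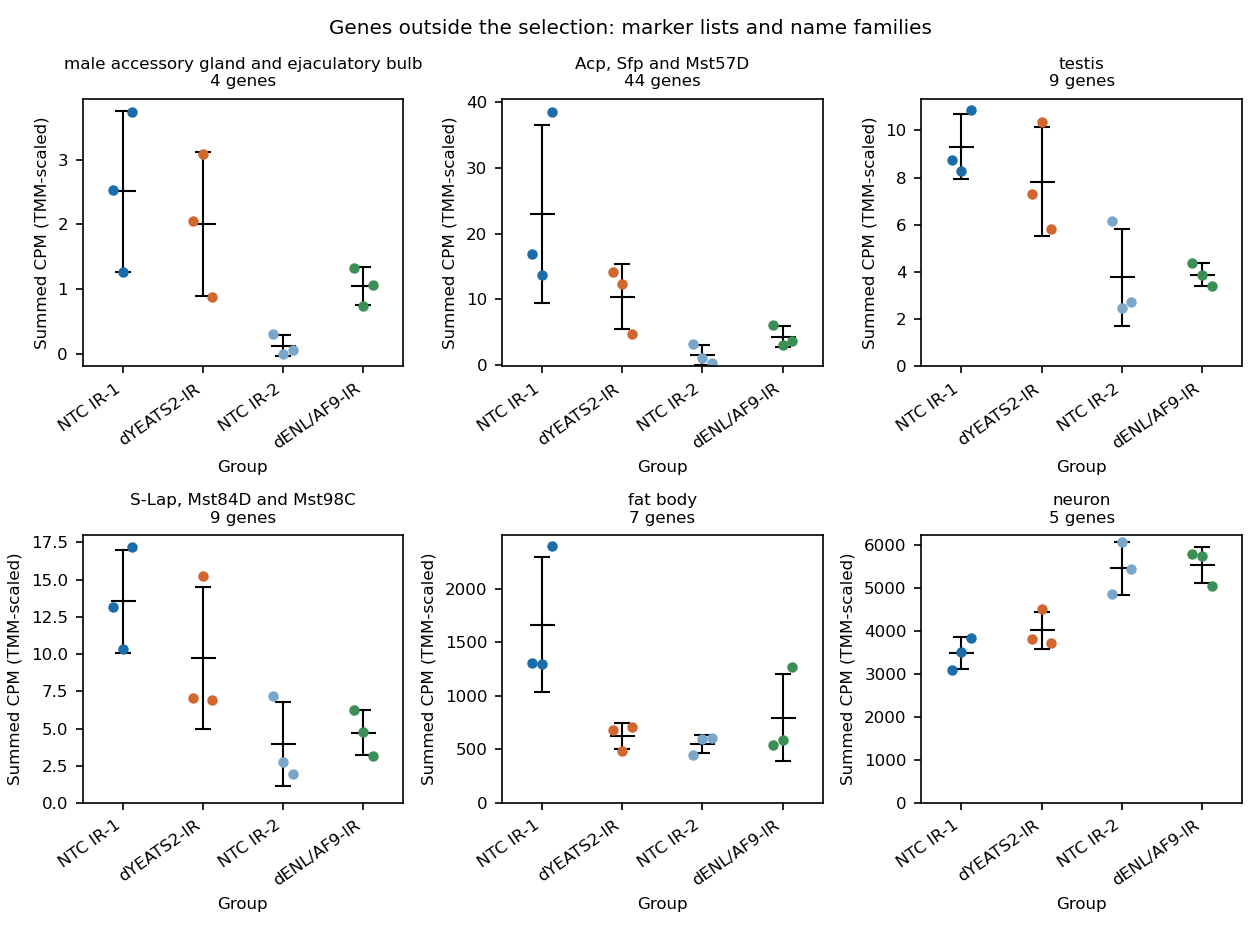
Summed CPM (vertical axis, TMM-scaled) of marker lists and name families outside the selection, by group; points are libraries in order of replicate, and the line and bars are mean and SD. NTC IR-1 is above NTC IR-2 in the reproductive and fat body panels, without overlap, and below it in the neuronal panel.

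The other 8 genes had different patterns. CG43182 and CG3397 were high in dYEATS2-IR and low in the other 3 groups. CG43182 (FBgn0262811), at X 353067 to 353317 on the plus strand, had 64, 105 and 130 counts in dYEATS2-IR, 2 in replicate 3 of NTC IR-2, and 0 in the other 8 libraries. Its mean in dYEATS2-IR was 2.92 ± 0.929 CPM (SD, n = 3), at least 42.6-fold higher than in NTC IR-1 with a floor of 3 counts per library. Per kilobase of exon this was the highest level among the 32 genes, 11.6 CPM per kilobase. It lies within CG32816 on the other strand, which had 227 to 798 counts per library.

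CG3397 (FBgn0037975), at 3R 11983098 to 11984541 on the minus strand, had 73, 25 and 64 counts in dYEATS2-IR and 0 in the other 9 libraries. Its mean there was 1.57 ± 0.710 CPM (SD, n = 3), at least 22.8-fold higher than in NTC IR-1 with the same floor. Neither gene showed a dYEATS2-IR library near the other groups.

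CG12522 showed the converse. At 3L 11108235 to 11108732 on the plus strand, it had 0 counts in each library of dYEATS2-IR, and 45, 39 and 62 in NTC IR-1, 32, 36 and 38 in NTC IR-2, with 69, 65 and 39 in dENL/AF9-IR. The 3 groups with counts overlapped and had means of 1.11 ± 0.243, 0.982 ± 0.200 and 1.16 ± 0.238 CPM in that order (SD, n = 3). CG12522 was the one gene of the 32 that was high in 3 groups.

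CG31862, a single-exon gene at 2L 12338848 to 12339477, was highest in NTC IR-2, with 76, 48 and 71 counts. It had 12, 9 and 21 counts in dENL/AF9-IR, 0, 2 and 25 in NTC IR-1 and 0 in each library of dYEATS2-IR. It was high in NTC IR-2 alone, which was low for 26 of the 32 genes. The NTC IR-2 libraries stood above all others, and those of NTC IR-1 and dENL/AF9-IR overlapped.

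The mitochondrial gene mt:tRNA:Ala-TGC, a transfer RNA for alanine, was high in dENL/AF9-IR with 16, 21 and 15 counts and had 14, 7 and 8 in NTC IR-2. It had 2, 0 and 0 counts in NTC IR-1 beside 3, 0 and 0 in dYEATS2-IR. The libraries thus fell in the order of the word young in their titles, without overlap between the groups that carry it and those that lack it. With 65 exon bases it is the shortest of the 32 genes.

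CG31917 and FucTC were present or absent library by library within a group, and CG13742 varied in this way within NTC IR-2 only. CG31917 had 132, 101 and 90 counts in NTC IR-1, 0, 97 and 82 in dYEATS2-IR, 0, 0 and 116 in NTC IR-2, with 0, 0 and 1 in dENL/AF9-IR. Among the 12 libraries it had either at least 82 counts or at most 1. Its exons overlap those of Tfb5 on the same strand, which encodes a subunit of the transcription factor TFIIH and had 815 to 1430 counts in every library, so reads of the 2 genes may not be separable. FucTC, a gene of the fucosyltransferase family, had 17, 23 and 34 counts in NTC IR-1, 0 in each library of dYEATS2-IR, 0, 18 and 19 in NTC IR-2, with 26, 0 and 0 in dENL/AF9-IR. Noncoding RNAs on the other strand overlap its exons. CG13742 had 19, 17 and 21 counts in NTC IR-1, 0, 2 and 0 in dYEATS2-IR, 5, 0 and 19 in NTC IR-2, with 25, 23 and 18 in dENL/AF9-IR.

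**Figure D4:**
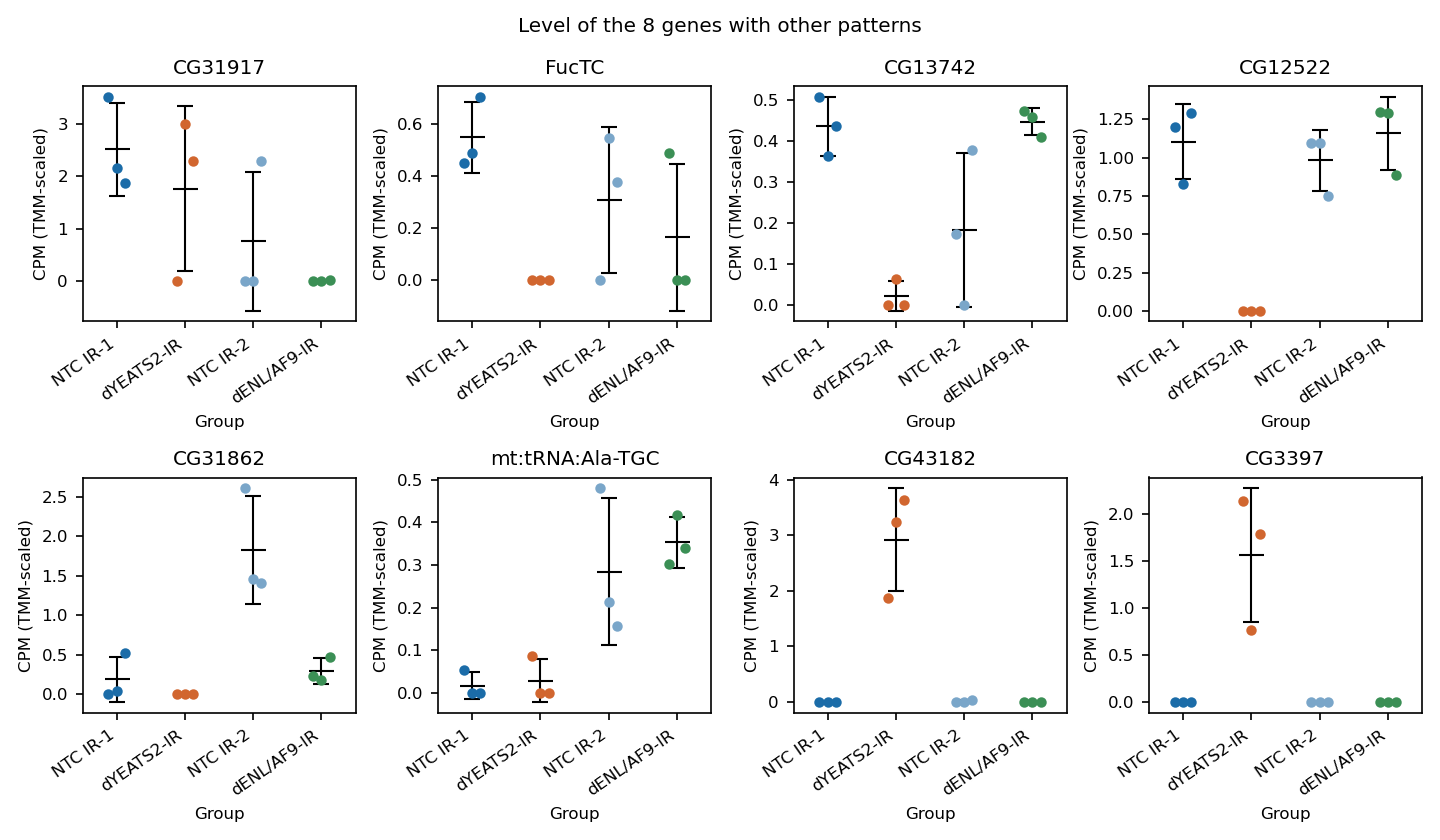
CPM (vertical axis, TMM-scaled) of the 8 genes with other patterns, by group; points are libraries in order of replicate, and the line and bars are mean and SD. CG43182 and CG3397 are present in dYEATS2-IR, CG12522 is at 0 there, and CG31917 and FucTC split the libraries within groups.

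The annotation lists 31 of the genes as protein coding and 1 as a transfer RNA, a share that the rule partly set, since antisense and long noncoding RNAs were left out by name. The rule did not name gene length or position. Their exons covered a median of 610 bases, against 2154 for the 9771 allowed rows with at least 15 counts in each library of a group. Of the 32 genes 22 had under 1000 exon bases, against 15.2% of those rows, and 8 had a single exon block, against 10.1%. A short gene collects fewer counts at the same level, and the lower threshold was on counts. The genes lay on X (2), 2L (8), 2R (5), 3L (8), 3R (8) and the mitochondrial genome (1).

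Rows beside the 32 genes were read to see whether a difference reached across the locus. For each gene these were the tested rows that overlap it and the nearest tested row on each side, 70 in all. They were read in the contrast of the gene's high and low group. The 32 genes themselves were passed over, so an adjacent selected gene, such as Sfp60F beside EbpII, was not read as a neighbour. With edgeR's quasi-likelihood test, 7 neighbours differed in the direction of the gene and 7 in the opposite direction. Of the 55 within 10 kb of their gene, 7 differed with it and 5 against it. Between NTC IR-1 and NTC IR-2, 48 neighbours were read, of which 6 were higher in NTC IR-1 and 5 lower, against 9.16% and 10.3% of all rows, and their median log2 fold change was -0.05. Without NTC IR-1 replicate 1 or 2 or NTC IR-2 replicate 2, the 7 neighbours that differed with their gene fell to 4 each time, and without NTC IR-1 replicate 1 or 2 the 7 that differed against it fell to 2 and 4.

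Ebp, which encodes an ejaculatory bulb protein of the mating plug, lies 896 bases from EbpII. It had 59, 90 and 136 counts in NTC IR-1 and 4, 0 and 0 in NTC IR-2, with a log2 fold change of 5.70 ± 1.19 (SE, edgeR FDR 0.00922). CG31872, 2876 bases from CG17097, had 6, 19 and 18 counts in NTC IR-1 and 0 in each library of NTC IR-2 (edgeR FDR 0.00759). CG43147, which lies between CG42481 and SP, had 81, 111 and 290 counts in NTC IR-1 and 17, 0 and 0 in NTC IR-2 (log2 fold change 4.33 ± 1.08 SE, edgeR FDR 0.0188). For all 3 the groups did not overlap.

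CG42688, 283 bases from CG46059, differed by 4.56 ± 1.17 (SE, edgeR FDR 0.0216) on the log2 scale and CG46298, 335 bases from CG12902, by 4.51 ± 1.31 (SE, edgeR FDR 0.0344). Gba1b, a glucocerebrosidase gene beside CG31468, differed by 1.48 ± 0.394 (SE, edgeR FDR 0.0251). The neighbours lower in NTC IR-1 were Ptp36E, SLO2, CG12880, smal and a row for an mdg1 transposable element insertion, by 0.44 to 1.54 on the log2 scale. Ptp36E and smal lay 72487 and 23992 bases from their genes, and CG12880 and the mdg1 row 2093 and 1990 bases. SLO2 overlapped CG12902. The call of CG43147 ended without NTC IR-2 replicate 2, that of CG42688 without NTC IR-1 replicate 1 or NTC IR-2 replicate 2 or 3, and that of Gba1b without NTC IR-1 replicate 1 or 2 or NTC IR-2 replicate 1 or 3. That of CG46298 ended without NTC IR-1 replicate 1 or 2, dYEATS2-IR replicate 1, or NTC IR-2 replicate 2 or 3. The calls of Ptp36E, SLO2, CG12880 and smal each ended without NTC IR-1 replicate 1, those of Ptp36E, SLO2 and CG12880 also without its replicate 2, those of SLO2 and CG12880 also without NTC IR-2 replicate 2, and that of CG12880 also without NTC IR-2 replicate 3. No single library ended the calls of Ebp, CG31872 and the mdg1 row.

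**Figure D5:**
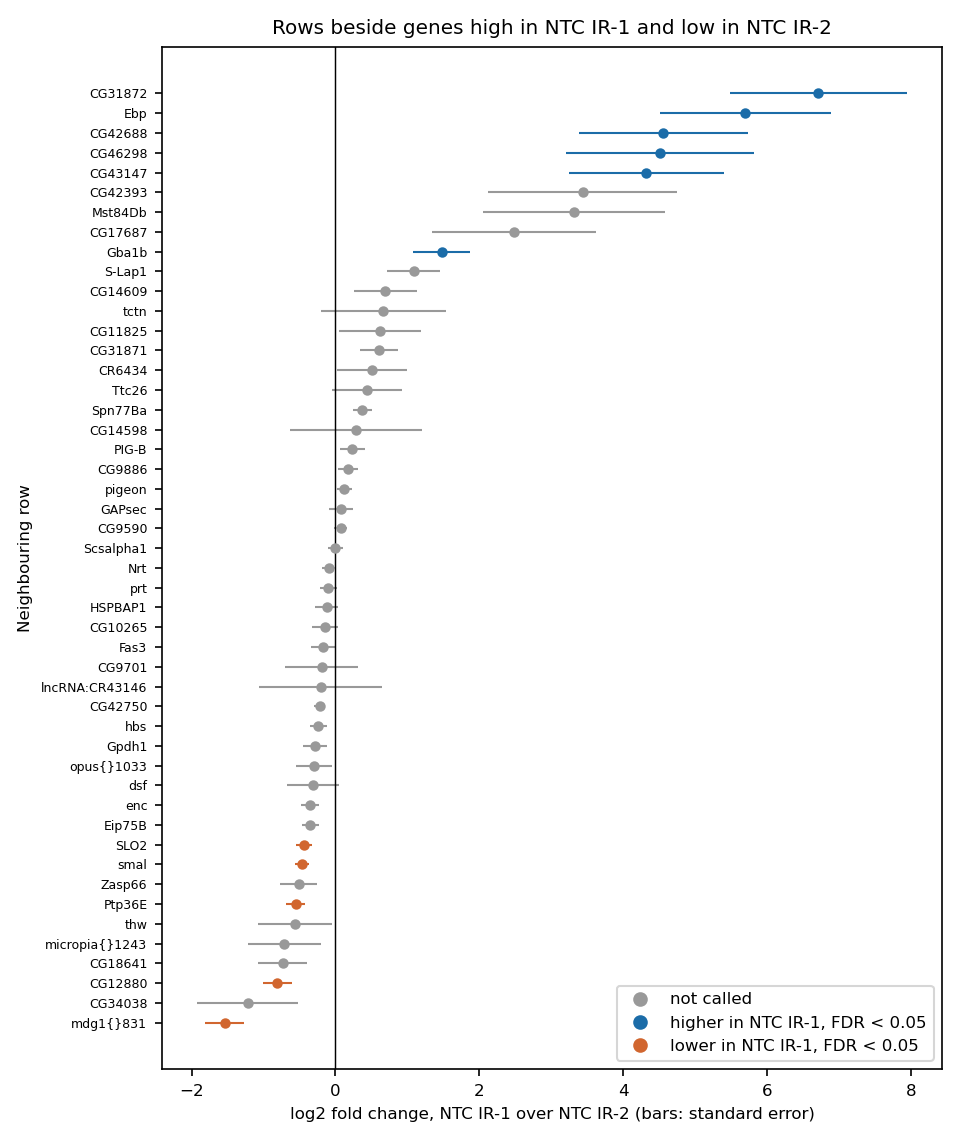
Log2 fold change of NTC IR-1 over NTC IR-2 (horizontal axis, bars are standard errors) of the 48 rows beside genes high in NTC IR-1 and low in NTC IR-2 (vertical axis). CG31872 and Ebp are highest, 6 rows are higher and 5 lower in NTC IR-1 at an edgeR FDR below 0.05, and most lie near 0.

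In the other contrasts 1 neighbour moved with its gene. mt:ND3, which encodes a subunit of respiratory complex I, is 22 bases from mt:tRNA:Ala-TGC. It had 7583, 6388 and 8479 counts in dENL/AF9-IR, 563, 1465 and 2868 in NTC IR-1, 1492, 984 and 801 in dYEATS2-IR and 4849, 4107 and 7001 in NTC IR-2. The groups with young in their titles were above the others, and dENL/AF9-IR exceeded NTC IR-1 by 2.13 ± 0.412 on the log2 scale (SE, edgeR FDR 0.00902), where 8.67% of all rows rose (1.64% without NTC IR-1 replicate 1, 2.44% without its replicate 2, 3.23% without dENL/AF9-IR replicate 1 and 2.70% without its replicate 2). Without replicate 2 of NTC IR-1 the call ended (FDR 0.0505). On the other side of mt:tRNA:Ala-TGC, mt:tRNA:Arg-TCG was higher in dENL/AF9-IR by 2.49 on the log2 scale and did not pass (edgeR FDR 0.0536).

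Beside CG43182, 1 neighbour moved the other way. CG32816, which overlaps CG43182, and CG3777 on its other side did not pass (edgeR FDR 0.133 and 0.9705). The y gene, needed for black pigment in the cuticle, lies 3192 bases from CG43182 on X. It had 6, 12 and 15 counts in dYEATS2-IR, 6763, 8831 and 6844 in NTC IR-1, 5344, 6992 and 6202 in NTC IR-2, with 1679, 1673 and 2949 in dENL/AF9-IR. In dYEATS2-IR relative to NTC IR-1 it fell by 9.03 ± 0.452 on the log2 scale (SE, edgeR FDR 8.29e-07), where 2.35% of all rows fell. That share was 0.725% to 1.55% without NTC IR-1 replicate 1 or 2, any dYEATS2-IR replicate, or dENL/AF9-IR replicate 2. CG43182 had counts in the group in which y was near absent, and was at or near 0 in the groups in which y was present. Of 9 tested chromosome marker genes, y among them, 1 rose and 2 fell in dYEATS2-IR relative to NTC IR-1 (edgeR). The one that rose was w, at a mean of 3745 CPM in dYEATS2-IR, against 42.5 in NTC IR-1, 33.6 in NTC IR-2 and 31.0 in dENL/AF9-IR (edgeR FDR 4.60e-10). The v gene fell by 2.30 on the log2 scale (edgeR FDR 0.0161). Any link of these genes to CG43182 was not tested. Rtnl1, beside CG31917, was lower in NTC IR-1 than in dENL/AF9-IR by 0.44 on the log2 scale (edgeR FDR 0.0345), where 8.67% of all rows were lower, a call that ended without any of 7 libraries (NTC IR-1 replicates 1 and 2, dYEATS2-IR replicates 1 and 3, and each dENL/AF9-IR replicate).

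The selection was repeated with a replicate number left out and then read in the libraries left out. From 2 libraries per group, 122, 72 and 91 rows were chosen without replicates 1, 2 and 3. The 32 genes hold in each case by definition, since the full rule asks for the same thresholds in every library. Most rows chosen from 2 libraries per group missed a threshold in a library left out.

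Several genes lay at the edges of the rule. Just inside the upper threshold were CG31639, Mst84Dd and mt:tRNA:Ala-TGC, with a lowest count of 15 in their high group, and Acp98AB, CG43101 and CG46059, with 16. CG31468 and Mst84Da also had 15 as their lowest count in dYEATS2-IR, beside at least 37 in NTC IR-1. Just outside, at 14, were 6 rows, among them Acp26Aa, CG14292, CG44102, snoRNA:Or-CD2 and sowi. At the lower threshold, 6 of the 32 genes had a highest count of 2 in their low group, and 22 rows outside had 3.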

How the data were processed

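Per the labels' protocols, RNA was taken from frozen decapitated heads and sequenced from TruSeq Stranded mRNA libraries. The submitters' processing notes name BDGP6 and dm6, FastQC 0.12.0, Trim Galore 0.6.5, HISAT2, SAMtools, UMI-tools, Picard and DESeq2, with no role or order. The counting program and its use of strand are not given in the sources used here, so antisense and overlapping genes are uncertain. The authors deposited raw counts per row and a normalized signal per row. The deposited signal was used only to compare column names: all rows of each column were a constant times the counts of a library of another name (tolerance 0.0001).

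Members, lists and rule were chosen with earlier results of these data known. Rows were matched by symbol to Ensembl BDGP6.54, release 115 (all 32 members). edgeR 4.0.16 in R 4.3.3 fitted all 12 libraries with 4 group means, TMM and filterByExpr (12661 rows); FDR is Benjamini-Hochberg over these rows, called below 0.05. SEs were derived from the log2 fold changes and the F statistics. Marker tests were added to a design that planned levels only; roles were assigned after the members were seen. Counts in every library are given for the 6 members with the highest mean CPM in each pattern, those averaging 100 counts or more in any group, and those with 0 counts in a low group and a name other than a CG number; genes outside this rule were named after their values were seen. Figures used matplotlib 3.10.9 in Python 3.11.15. The fit was tested on simulated data. Alternatives are listed in the closing section. Sequences were not used here.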

Additional observations from a re-analysis of the deposited data

How the results depend on the processing

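The selection rule set how many genes were found. With at most 5 counts in the low group it gave 73 genes, with at least 10 in the high group 69 and with at least 30 there 10. Without a replicate number it gave 72 to 122 genes, and without a single library 34 to 72. Of the rows chosen without replicate 1, 60 were at most 5 and at least 10 in the library left out, against 32 under the rule. With a replicate number or a single library left out, 0 to 10 neighbours differed with the gene and 1 to 10 against it, and on the marker lists 0 to 3 accessory gland genes and 0 to 4 testis genes fell in NTC IR-2. Single libraries whose loss reduced the neighbours from 7 with the gene to 4 were NTC IR-1 replicates 1 and 2 and NTC IR-2 replicate 2, and without NTC IR-1 replicate 1 or 2 those against it were 2 and 4. DESeq2's Wald test called 5 testis genes. The causes were not tested. With the replicate number as a block, 8 neighbours differed with the gene and 6 against it, and 2 accessory gland and 2 testis genes fell, the calls of Dup99B and ProtB among those lost, along with that of Rtnl1. The block moved the count of called rows from 604 to 334 in dYEATS2-IR against NTC IR-1 and from 625 to 347 in dENL/AF9-IR against dYEATS2-IR. Replicate numbers did not pair the libraries: deviations of same-numbered libraries correlated at -0.226 to 0.206, and the same number gave the best correlation in 9 of 36 cases. Under the group names of the normalized table the same 32 genes were found. This was fixed in advance, since whole groups exchange names and the rule does not depend on the names. Promoter motifs and peptide lengths were planned and not run. Low counts limit the depth: thresholds on counts ask for a higher level in shallower libraries, and scaled to the smallest library total the rule gave 23 genes, 20 of them shared.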
